A study of Oryza sativa with 20 samples.

Results

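A set of 160 rice probe sets had lower signals at 8 h in every line in which the transcription factor CRL1 was switched on with dexamethasone. Members were selected on those 8 h signals out of 57258 probe sets. The change in a line was the log2 signal after dexamethasone minus the log2 signal after mock treatment, with 1.7 added to each signal. A member had a change of -0.8 or less in all 3 lines that carried inducible CRL1, a change above -0.5 in both control lines, and a mean mock signal of at least 50 in the CRL1 lines. Names of gene families such as expansins, Aux/IAA repressors and cyclins were left out by the same rule, which removed 9 probe sets (ACO1, PIN5a, EXP6, RR2, IAA15, CSLA9, BHLH172, IAA7 and Hox21). Of the 160 members, 122 were paired with exactly 1 gene, and these covered 119 genes. A further 37 had no listed gene and 1 had several. A name other than a locus number was available for 15.

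All seedlings were crl1 mutants (crown rootless 1) of the rice cultivar Taichung 65 and were 8 days old. The 3 CRL1 lines were independent, single-locus, homozygous T2 lines with the CRL1 coding sequence in the glucocorticoid-inducible vector pINDEX2, chosen for making crown roots after dexamethasone. Control line 1 was the untransformed crl1 mutant and control line 2, a single line, carried the vector without CRL1. Each line was treated with 10 µM dexamethasone or with ethanol as mock, and stem bases were taken 4 h and 8 h later. One Affymetrix rice array was made per line, treatment and time from the RNA of 20 stem bases, which gave 3 arrays in each CRL1 group, 2 in each control group and 20 in all. The lines are the replicates. The labels do not say whether the samples of a line came from separate flasks, and p-values measure only the spread between these lines.

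Crown roots are the shoot-borne roots of cereals and arise from founder cells in the stem base. CRL1 is a LOB-domain transcription factor that acts downstream of auxin response factors and is required for crown root initiation. A stem base also holds the shoot meristem, young leaves and vascular tissue, and crown root founder cells are a small part of it. The members were bulk measurements, in which fewer cells of a type and less RNA per cell cannot be told apart. The pINDEX2 vector supplies a glucocorticoid-responsive activator, which the empty vector line carries too.

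The deposited values are linear signals, scaled by the authors, with the same trimmed mean on every array. Median array signals lay between 10.1 and 15.5. Control line 1 ranked its probe sets least like the rest, with rank correlations of 0.88 to 0.93 to arrays of other lines, against 0.9 to 0.94 among the other 16 arrays. No probe set could be matched to CRL1 itself, so its induction was not checked on these arrays. No shoot meristem gene (OSH1 among them) was at 0 on all arrays of a group. Nor was any leaf gene (the Rubisco small subunit rbcS among them). A signal above 0 does not by itself show that a gene was expressed. At 8 h OSH1 had 711.1, 735.7 and 581.4 in mock-treated CRL1 lines, and OSH43, nearer the array medians, had 13.8, 30.1 and 8.8.

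Across the members, the median 8 h change was -1.14 in CRL1 line 1, -1.42 in line 2 and -1.28 in line 3, against -0.07 in control line 1 and 0.0 in control line 2. The member means over the CRL1 lines ran from -2.66 to -0.88, with a median of -1.31. A mean change of -2 or less was seen for 11 members, one between -2 and -1 for 140 and one above -1 for 9. These values chose the members and are given without a test. The rule also favours members whose dexamethasone and mock signals do not overlap in the CRL1 lines at 8 h. Such separation at 8 h, given below for single members, is a description and no further evidence. Line 2 had the largest change for 80 members, line 3 for 57 and line 1 for 23. Line 1 had the smallest change for 89 members. The median member signal at 8 h was 80.5, 61.8 and 63.8 in the dexamethasone-treated CRL1 lines, against 179, 189 and 162 in their mock samples. In the control lines it was 130 and 161 after dexamethasone, against 132 and 160 after mock.

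**Figure D1:**
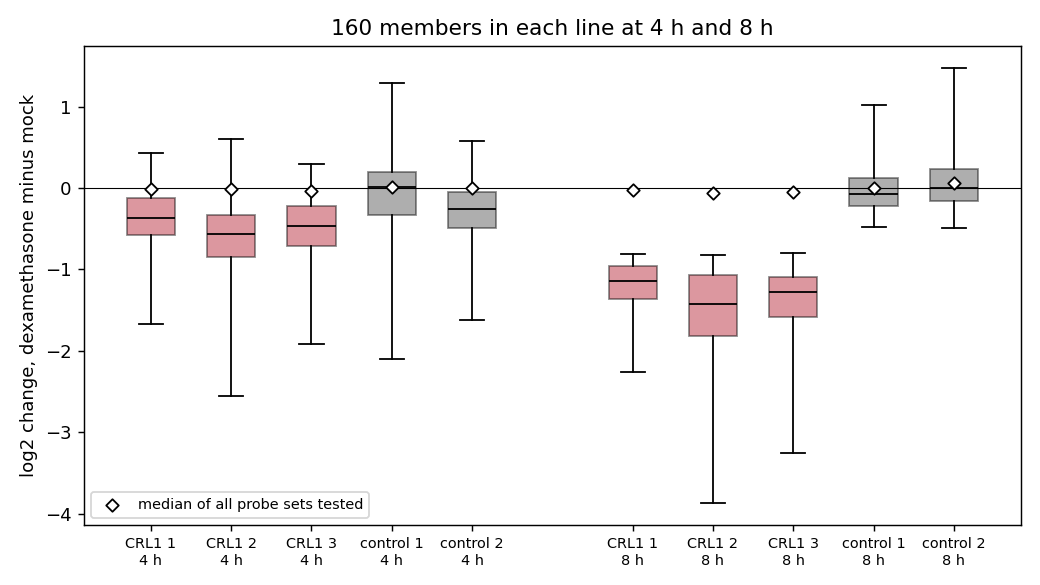
Log2 change, dexamethasone minus mock, of the 160 members in each line at 4 h and 8 h. Boxes give the quartiles and the median, whiskers the lowest and highest member, and diamonds the median of all probe sets tested. The 8 h boxes show the values that chose the members, and at 4 h the medians of the 3 CRL1 lines, -0.37, -0.56 and -0.46, lie below those of the control lines, 0.01 and -0.25.

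The largest mean change belonged to Os.15765.1.S1_at, which has no listed gene, with -2.66 ± 1.24 (SD, n = 3). Its 8 h signals were 50.4, 18.1 and 33.3 in dexamethasone-treated CRL1 lines, against 135.3, 287.1 and 228.9 in mock-treated CRL1 lines. In the control lines they were 282.4 and 335.6 after dexamethasone, against 333.6 and 119.1 after mock. The CRL1 groups did not overlap, and the control groups did, a pattern that the rule favours. Os.9836.1.S1_at, also without a listed gene, had 665.2, 93.2 and 125.2 after dexamethasone in the CRL1 lines at 8 h, against 2200.6, 730.4 and 1099.6 after mock. In control line 1 all its signals, at 98.6 or below at 8 h and at 117.3 or below at 4 h, were far under those of mock-treated CRL1 lines, while control line 2 had 1369.1 after dexamethasone and 1423.4 after mock at 8 h. The transcript was low in the untransformed line with and without dexamethasone.

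OsAffx.30169.1.S1_at, also without a listed gene, had 15.6, 7.2 and 9.6 after dexamethasone at 8 h in the CRL1 lines, against 65.5, 69.1 and 51.1 after mock. At 4 h it had 26, 14.9 and 23.1 after dexamethasone, against 55.9, 96 and 66.2 after mock. The groups were apart at both times, and its 4 h change of -1.69 ± 0.46 was the largest of any member, short of a call (limma, adjusted p = 0.225) with all lines and past it without control line 1 or 2 (0.0298 and 0.0274). LOC4341704 had 80.3, 38.1 and 25.7 after dexamethasone at 8 h in the CRL1 lines, against 226.5, 269.3 and 186 after mock. At 4 h it had 79.2, 172.3 and 120.8 after dexamethasone, against 255.3, 306.4 and 282.9 after mock, a change of -1.24 ± 0.35 (limma, adjusted p = 0.271). The 2 control lines moved apart at 4 h, with changes of 1.22 in line 1 and -0.81 in line 2.

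SAT5, a serine acetyltransferase, makes O-acetylserine, the carbon skeleton onto which sulfide is fixed as cysteine. Its 8 h signals were 22.3, 4.2 and 36.1 in dexamethasone-treated CRL1 lines, against 98.7, 74 and 153.6 in mock-treated CRL1 lines. At 4 h they were 81.2, 60.5 and 40.8 after dexamethasone, against 95.6, 52.5 and 39.5 after mock. The groups were apart at 8 h, with a mean change of -2.59, and overlapped at 4 h, where the limma estimate was 0.0 ± 0.32 (SE, adjusted p = 0.999). A second probe set paired with SAT5 (Os.48286.1.A1_at) read the other way at 8 h, with 406.9, 403.5 and 354.7 after dexamethasone, against 335.7, 321.9 and 354.5 after mock in the CRL1 lines. Only 1 of the gene's probe sets therefore places SAT5 among the members.

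GRXC1 encodes a glutaredoxin, a small enzyme that reduces disulfides with glutathione. At 8 h its signals were 100.1, 67.3 and 243.9 in dexamethasone-treated CRL1 lines, against 486.5, 420.6 and 440.7 in mock-treated CRL1 lines. At 4 h they were 236.2, 162.3 and 387.8 after dexamethasone, against 557.8, 501 and 542.7 after mock. All 3 dexamethasone signals lay below all 3 mock signals at both times, and line 3 had the weakest change at both. The control lines at 4 h had 637.8 and 408.5 after dexamethasone, against 427.3 and 567.7 after mock, and these overlapped. The 4 h change of -1.11 ± 0.29 in the CRL1 lines did not pass the test across all probe sets (limma, adjusted p = 0.195), nor did its difference of -1.16 ± 0.45 from the control lines (adjusted p = 1.0).

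ADC2 encodes an arginine decarboxylase, which starts one route to the polyamine putrescine. Its 8 h signals were 256.8, 128.1 and 114.6 in dexamethasone-treated CRL1 lines, against 658.9, 320.7 and 414.9 in mock-treated CRL1 lines. At 4 h its limma estimate was -0.64 ± 0.45 in the CRL1 lines and -0.99 ± 0.55 in the control lines, where line 2 had 195.3 after dexamethasone, against 604.7 after mock. The difference of the responses at 4 h was 0.36 ± 0.7 (limma, adjusted p = 1.0). In control line 1 ADC2 signals ranged no higher than 142.7 on any array.

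Among signalling genes, NEK2, a NIMA-related protein kinase of a family best known from the microtubule cytoskeleton and the cell cycle, had 108.7, 80.7 and 76.9 after dexamethasone at 8 h in the CRL1 lines, against 268.1, 342.8 and 298.2 after mock. Its 4 h signals were 217.7, 216.4 and 180 after dexamethasone, against 214.3, 398.3 and 298.7 after mock, so line 1 had not moved at 4 h. The 4 h change was -0.53 ± 0.2 (limma, adjusted p = 0.509). ER2, a receptor kinase of the ERECTA family, which in Arabidopsis shapes organ growth and stomatal spacing, had 235.8, 211.6 and 201.4 after dexamethasone at 8 h in the CRL1 lines, against 620.3, 610 and 522.3 after mock. Its changes were the most even of the 15 named members along with those of Rac1, with an SD of 0.08 across lines for each. Its 4 h change was -0.36 ± 0.15 (limma, adjusted p = 0.56), lower in all 3 CRL1 lines.

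RTFL3 belongs to the ROT-FOUR-like family of small peptides that limit cell proliferation along organs in Arabidopsis. It was close to the signal limit, with 25.1, 19.3 and 15.1 after dexamethasone at 8 h in the CRL1 lines, against 62.3, 51.3 and 50.2 after mock. Rac1, a ROP-type small GTPase known in rice for its part in defence, had 213.5, 158 and 193.9 after dexamethasone at 8 h in the CRL1 lines, against 384.8, 305.9 and 392.2 after mock. Control line 1 had 198.7 after dexamethasone and 203.6 after mock at 8 h, near the level of the dexamethasone-treated CRL1 lines. At 4 h neither gene passed the test, with -0.21 ± 0.15 for RTFL3 and -0.23 ± 0.19 for Rac1 (limma, adjusted p = 0.892 and 0.935).

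The named transcription factors were BZIP06 of the bZIP family, BCL1 (bHLH080) of the basic helix-loop-helix family and PCF3 of the TCP family, whose members in many plants regulate cell proliferation and growth. BZIP06 had 33.9, 27.4 and 35.2 after dexamethasone at 8 h in the CRL1 lines, against 110.9, 108 and 80.2 after mock. BCL1 had 158.2, 115.9 and 145.4 after dexamethasone, against 333.2, 375.2 and 438.4 after mock. PCF3 had 105.6, 74 and 68 after dexamethasone, against 200, 199.6 and 162 after mock. All 3 showed separate groups at 8 h, which the rule favours. At 4 h the limma estimates were -0.41 ± 0.3 for BZIP06, -0.14 ± 0.29 for BCL1 and -0.18 ± 0.13 for PCF3, none past the threshold. For BCL1 the 4 h signals were 346.9, 315.6 and 333.1 after dexamethasone, against 329.4, 392.1 and 374.7 after mock, and overlapped.

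NRAMP5, the main importer of manganese, and with it cadmium, into rice roots, had 64.7, 73 and 63 after dexamethasone at 8 h in the CRL1 lines, against 223.5, 174.1 and 153 after mock. At 4 h it had 133.6, 151.8 and 117.8 after dexamethasone, against 217.8, 219.8 and 193.5 after mock. The control lines at 4 h had 140.7 and 118.5 after dexamethasone, against 227.2 and 178.9 after mock, the same separation. The 4 h change was -0.65 ± 0.15 in the CRL1 lines and -0.64 ± 0.18 in the control lines, and the difference was -0.01 ± 0.23 (limma, adjusted p = 1.0). The change in the CRL1 lines had an adjusted p of 0.13, and of 0.0365 with line as a block. At 8 h the control lines had 122.9 and 162.8 after dexamethasone, against 160.5 and 180.9 after mock.

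SWEET11 (Os8N3, XA13), a sugar exporter of the SWEET family active in grain filling and exploited by blight bacteria, had 466.9, 402.4 and 231.7 after dexamethasone at 8 h in the CRL1 lines, against 1002.7, 729.5 and 611.7 after mock. Its 4 h change was -0.49 ± 0.29 (limma, adjusted p = 0.835), lower in 3 of 3 CRL1 lines. In control line 1 the 8 h signals were 508.7 after dexamethasone and 430.5 after mock, below every mock signal of the CRL1 lines. ADF11, an actin depolymerizing factor, had 43.6, 26.4 and 52.2 after dexamethasone at 8 h in the CRL1 lines, against 152.9, 74.5 and 97.1 after mock. At 4 h its change was -0.58 ± 0.32 in the CRL1 lines and -1.41 ± 0.39 in the control lines, and the difference of 0.83 ± 0.5 did not pass the test (limma, adjusted p = 1.0). The CRL1 value depended on the line, at -0.18 without line 1 and -0.92 without line 2. BURP12, a BURP-domain gene, had 60.3, 48 and 50.4 after dexamethasone at 8 h in the CRL1 lines, against 116.2, 94.9 and 122.9 after mock.

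PSS1 was lower in every CRL1 line at both times. Its signals at 8 h were 47.8, 43.3 and 35.5 in dexamethasone-treated CRL1 lines, against 153.4, 144.4 and 99.2 in mock-treated CRL1 lines. At 4 h they were 49.4, 61.2 and 58.5 after dexamethasone, against 92.4, 123.1 and 93.7 after mock. The groups did not overlap at either time. The 4 h change of -0.84 ± 0.34 had an adjusted p of 0.555 in limma, and of 0.0282 with line as a block. The control lines changed by -0.46 ± 0.41 at 4 h, and the difference of -0.39 ± 0.54 did not pass the test (adjusted p = 1.0).

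**Figure D2:**
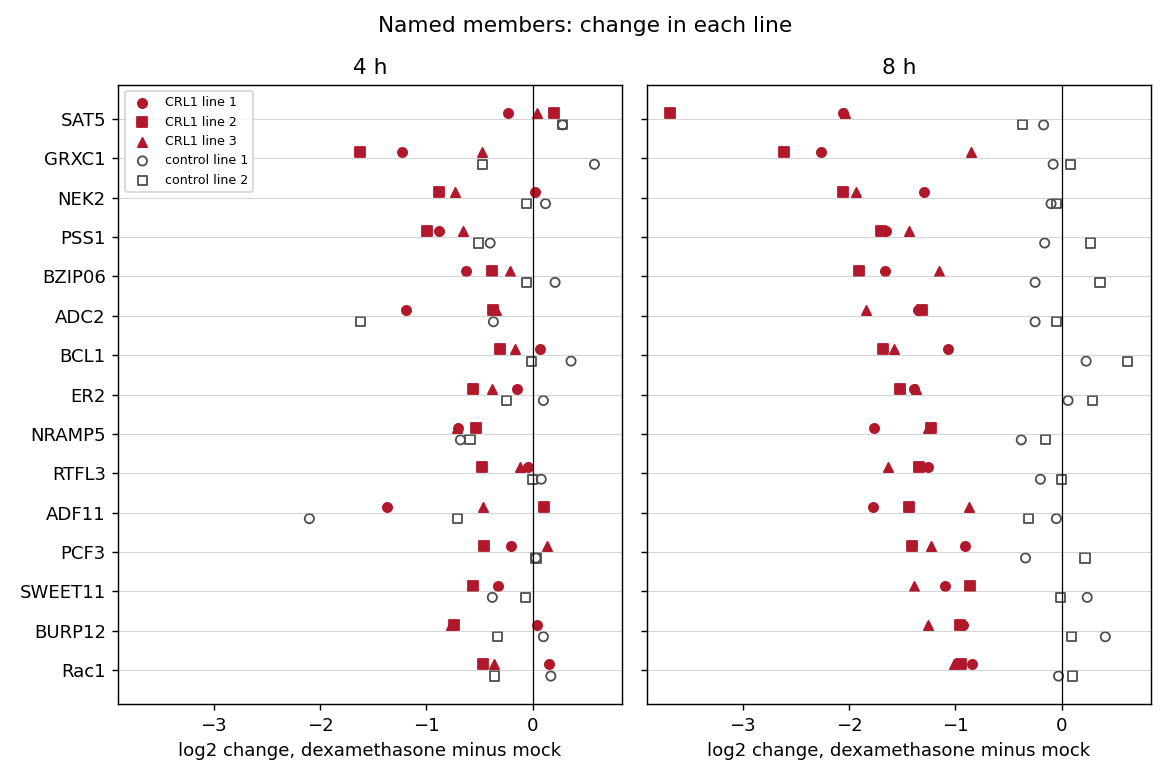
Log2 change, dexamethasone minus mock, of the 15 named members in each CRL1 line (filled red) and control line (open grey) at 4 h (left) and 8 h (right). The 8 h values of all 3 CRL1 lines are at or below the limit of -0.8 by the rule. At 4 h GRXC1 and PSS1 have all CRL1 lines below both control lines or level with the lower one, and ADC2 and ADF11 have a control line furthest to the left.

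The 4 h arrays were not used to choose the members, and all 160 members entered the test there among 30453 probe sets. At 4 h, 117 members (73.1%) were lower after dexamethasone in all 3 CRL1 lines, against 17.5% of all probe sets tested. No member was higher in all 3 CRL1 lines, while 4372 of the probe sets tested were. For 88 members (55.0%) all 3 dexamethasone signals lay below all 3 mock signals, against 7.73% of all probe sets tested. The median 4 h change was -0.37, -0.56 and -0.46 in CRL1 lines 1, 2 and 3, and -0.48 by the limma estimate, where the median of all probe sets tested was -0.02. A fall of at least 0.8 in all 3 CRL1 lines at 4 h was present for 5 members (3.12%), against 0.263% of all: OsAffx.30169.1.S1_at, LOC4341704, LOC4343264, LOC4347766 and LOC4327631.

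By mean 4 h change, 22 members were at -0.8 or less, 91 lay between -0.8 and -0.3, and 47 were above -0.3. The range was -1.69 to 0.16. In 147 members the change at 8 h exceeded that at 4 h in all 3 CRL1 lines, a count that the choice of members on their 8 h values favours. The median share of the 8 h change present at 4 h was 36.3%. That share is biased low, because the members were chosen for large 8 h changes. At the late end stood LOC4344897, with 4 h signals of 610.4, 562.9 and 701.6 in dexamethasone-treated CRL1 lines, against 571, 517.9 and 746.4 in mock-treated CRL1 lines. Its 8 h signals were 413.6, 368.1 and 396 after dexamethasone, against 728.8, 668.4 and 778.5 after mock. The groups overlapped at 4 h and were far apart at 8 h, where the rule favours separation.

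**Figure D3:**
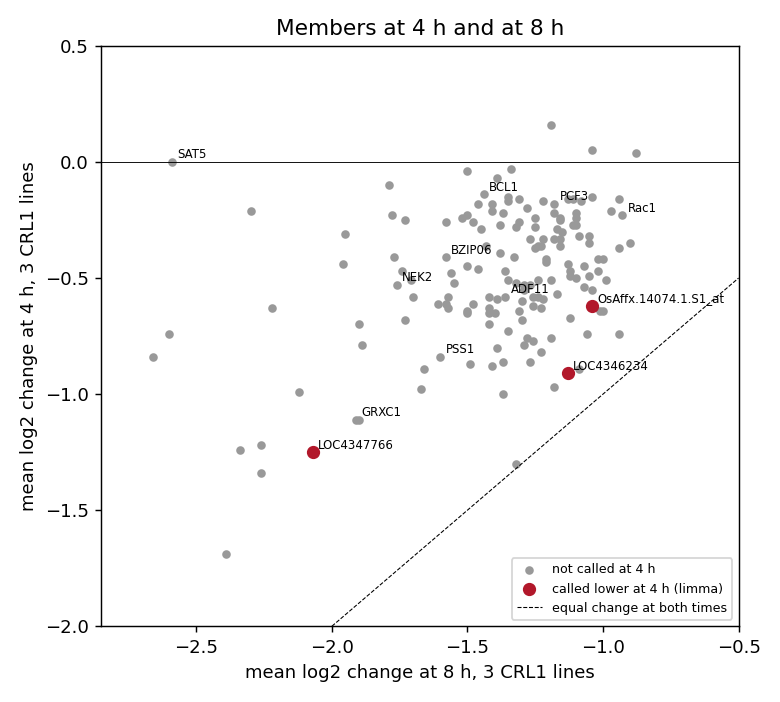
Mean log2 change of each member over the 3 CRL1 lines at 4 h (vertical) against 8 h (horizontal), with the 3 members called lower at 4 h in red and the line of equal change dashed. Nearly all points lie above the dashed line, SAT5 at -2.59 and 0.0, and LOC4347766 at -2.07 and -1.25. The choice of members on their 8 h values favours this position.

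In limma, 3 members (1.88%) fell at 4 h in the CRL1 lines at an adjusted p under 0.05, against 11 of all probe sets tested (0.0361%). At an unadjusted p under 0.05, 76 members (47.5%) were lower, against 3.55%. With line as a block, which pairs the dexamethasone and mock arrays of the same line, 11 members were called among 90 probe sets called lower. Arrays of 1 line share their plants' genotype and insertion, so the lines pair the arrays by the labels.

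LOC4347766 had the smallest adjusted p of the members at 4 h. Its 4 h signals were 147.2, 116.8 and 156.2 in dexamethasone-treated CRL1 lines, against 269, 377 and 367.2 in mock-treated CRL1 lines, and 298.8 and 268.3 after dexamethasone in the control lines, against 292.8 and 368.1 after mock. The CRL1 groups did not overlap, and the change was -1.25 ± 0.17 (limma, adjusted p = 0.0156, and 0.0208 with the block). Its difference from the control response was -1.04 ± 0.27, which did not pass across all probe sets (adjusted p = 0.96). At 8 h it had 114.9, 35.2 and 57.4 after dexamethasone in the CRL1 lines, against 246.2, 327.7 and 229.4 after mock. Without any 1 of the CRL1 lines its adjusted p at 4 h was 0.107 to 0.301.

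LOC4346234 had 51.7, 48.5 and 56.4 at 4 h in dexamethasone-treated CRL1 lines, against 114.9, 101.5 and 85 in mock-treated CRL1 lines. Control signals at 4 h were 131.9 and 157.5 after dexamethasone, against 160.4 and 133.9 after mock, and overlapped. It fell by 0.91 ± 0.15 on the log2 scale (limma, adjusted p = 0.0401, and 0.0517 with the block, which ends the call). OsAffx.14074.1.S1_at, without a listed gene, had 108.1, 98.7 and 109.1 at 4 h after dexamethasone in the CRL1 lines, against 165.8, 163.7 and 158.9 after mock. Its control lines had 133 and 131.4 after dexamethasone, against 178.8 and 174.1 after mock, also apart. The change was -0.62 ± 0.1 in the CRL1 lines (limma, adjusted p = 0.0387, and 0.0442 with the block) and -0.41 ± 0.13 in the control lines, and the difference of -0.21 ± 0.16 did not pass the test (adjusted p = 1.0). Both calls are lost without any 1 of the CRL1 lines, at adjusted p of 0.126 to 0.553 for LOC4346234 and 0.246 to 0.505 for OsAffx.14074.1.S1_at. OsAffx.14074.1.S1_at also loses its call without either control line, at 0.0581 and 0.0584.

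Among the 11 members called with the block, LOC4343264 had the smallest adjusted p, 0.0137. Its lines stood at different levels, with 109.1, 197.1 and 51.5 at 4 h after dexamethasone in the CRL1 lines, against 335.6, 377.9 and 147.7 after mock. Control signals at 4 h were 14.3 and 57.6 after dexamethasone, against 21.4 and 79.3 after mock. Each line was lower after dexamethasone, by -1.61, -0.93 and -1.49 in the CRL1 lines and by -0.53 and -0.45 in the control lines. Without the block the change was -1.34 ± 0.67 (limma, adjusted p = 0.721). LOC4327631, LOC4346253, LOC4330462, LOC4337248, LOC4350462 and OsAffx.11813.1.S1_at were called with the block alone, at adjusted p between 0.0244 and 0.0442, as were PSS1 and NRAMP5.

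Of these, LOC4337248 moved apart in the CRL1 and control lines. Its 4 h signals were 122.5, 139.9 and 170.1 after dexamethasone in the CRL1 lines, against 220.8, 206.4 and 265.7 after mock. The control lines had 180.6 and 205.2 after dexamethasone, against 169.1 and 173 after mock. It was lower in all CRL1 lines and higher in both control lines, with a difference of -0.85 ± 0.24 (limma, adjusted p = 1.0, unadjusted p = 0.00539). LOC4346253 did not, with -0.76 ± 0.2 in the CRL1 lines and -0.68 ± 0.25 in the control lines.

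**Figure D4:**
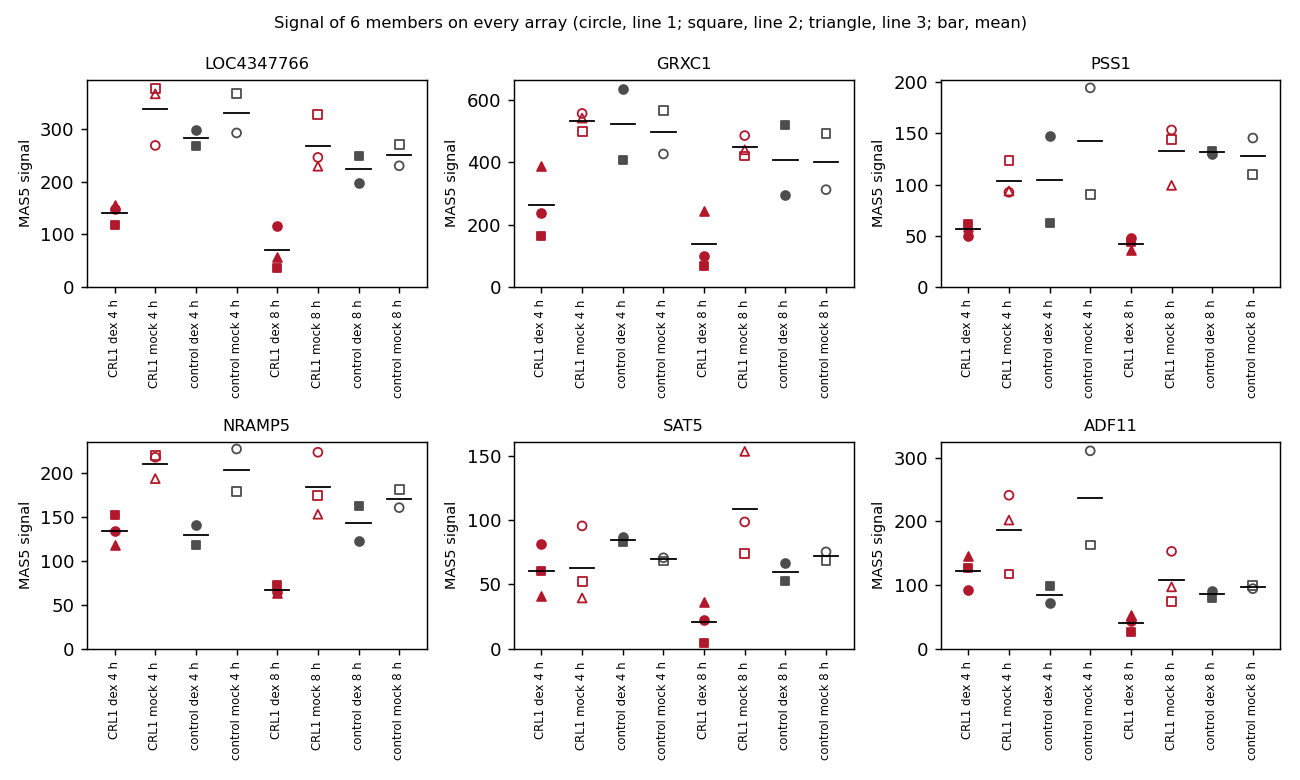
Signal of 6 members on each of the 20 arrays, by group, with CRL1 lines in red, control lines in grey, dexamethasone filled and mock open. LOC4347766, GRXC1 and PSS1 have separate CRL1 groups at both times, and NRAMP5 at 4 h is as low after dexamethasone in the control lines as in the CRL1 lines. The plotted SAT5 probe set is lower at 8 h alone, while another probe set of the gene was not lower. ADF11 at 4 h has its lowest signal, 71.2, in a control line.

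In the control lines no member was called lower at 4 h (limma), where the share of all probe sets was 0%, but 13 members (8.12%) were lower at an unadjusted p under 0.05, against 1.98% of all. Both control lines were lower after dexamethasone for 66 members (41.2%), against 26.2% of all. The empty vector line was lower for 128 members (80.0%), against 50.4%, with a median change of -0.25. The untransformed line was lower for 78 members (48.8%), against 47.9%, with a median change of 0.01. Whether the 2 control lines differ in this was not tested, since each gave 1 array per treatment. Of the 117 members lower in all CRL1 lines at 4 h, 54 were lower in both control lines too, 11 were higher in both, and 52 were mixed.

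The difference between the CRL1 and the control response at 4 h was called for no member (limma), against 0% of all. At an unadjusted p under 0.05 the response was lower in the CRL1 lines for 16 members (10.0%), against 1.08% of all. The 3 CRL1 changes all lay below both control changes for 56 members (35.0%), against 11% of all. The median difference of the members was -0.3, against -0.02 for all probe sets tested.

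Levels without dexamethasone were compared between the mock-treated lines. Mock-treated CRL1 lines differed from mock-treated control lines at 4 h for no member (limma), against 0.00328% of all, and at an unadjusted p under 0.05 for 15 members (9.38%), against 6.87%. The median difference was 0.1. All 3 CRL1 signals lay above both control signals for 20 members (12.5%), against 10.6% of all, and below both for 10 (6.25%), against 14.3%. Against control line 1 alone, 12 members (7.5%) were called in limma, against 1.69% of all, and 11 of the 12 were higher in the CRL1 lines. That fit has 1 control array per treatment, which is assumed to vary like the arrays of the CRL1 groups. The floor of 50 on the mock signal applied to the CRL1 lines at 8 h alone. It favours members that stand higher in mock-treated CRL1 lines than in control lines. The probe sets tested carry no such floor, so the direction of these mock comparisons is tilted by the choice of members. All 4 arrays of control line 1 lay below the other 16 for 2 members (1.25%), against 3.72% of all probe sets tested, and above them for 12 (7.5%), against 6.15%. From 4 h to 8 h the members' mock signals moved little, with median changes of 0.19, -0.05 and -0.04 in CRL1 lines 1 to 3, and of -0.19 and -0.08 in the control lines.

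Several member genes were read by more than 1 probe set. LOC4352571, LOC4341906 and LOC4330776 each had 2 member probe sets. LOC4352571 had 728.1, 425.1 and 707.8 on one and 630.1, 398.2 and 664.6 on the other at 8 h in dexamethasone-treated CRL1 lines, against 1462.1, 1515.7 and 1518.1, and 1190.1, 1417 and 1397.2, in mock-treated CRL1 lines. Another 12 member genes had 16 further probe sets outside the rule, of which 13 were lower in all 3 CRL1 lines at 8 h. With a mean mock signal of at least 50 there were 10 such probe sets, and 9 were lower in all 3 lines, the exception being that of SAT5. Probe sets of 1 gene share their RNA and are not replicates. Probe sets whose ending marks possible matches to several transcripts made up 32 of the members, and their signals may be shared with a near copy.

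By gene order in the RefSeq annotation, 4 pairs of member genes had a single gene between them. Such pairs were not counted among all measured genes, so whether 4 is many or few was not tested. LOC4350462 and LOC4350464 had mean 8 h changes of -0.94 and -1.58, ADF11 and LOC4352850 of -1.36 and -0.99, LOC4343779 and LOC4343782 of -1.24 and -2.3, and LOC4344513 and LOC4344514 of -1.01 and -1.28. The last pair was also lower in all CRL1 lines at 4 h, at -0.64 ± 0.17 and -0.76 ± 0.21, while the control estimates were 0.04 ± 0.21 and 0.21 ± 0.25. Both are read by probe sets of the ending that marks possible cross-matches.

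Genes related to the named members were found by patterns in their names. Of 46 genes of sulfur assimilation, glutathione and glutaredoxins, 0 were called in either direction at 4 h in limma, 3 were lower and 1 higher at an unadjusted p under 0.05, and the list median was -0.01, against -0.02 for all probe sets tested. With line as a block, GST-I was called lower (-1.03, adjusted p = 0.0177). GRXC15 and GRXC10 stood near GRXC1. GRXC15 had 221.1, 235.3 and 521.6 at 4 h in dexamethasone-treated CRL1 lines, against 659.7, 587.4 and 647.2 in mock-treated CRL1 lines, a change of -1.06 ± 0.29 (adjusted p = 0.229). GRXC10 had 237.9, 308.9 and 537.9 after dexamethasone, against 502, 656.1 and 639.7 after mock, a change of -0.8 ± 0.26 (adjusted p = 0.369). In both, as in GRXC1, line 3 changed least, and at 8 h it was 559.7 after dexamethasone, against 632.6 after mock, for GRXC15 and 586.5, against 493.5, for GRXC10, which kept both outside the rule. Other glutaredoxins read differently at 8 h, with means of -0.02 for GRXC8, 0.01 for GRXS1 and 0.74 for GRXS5.

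Of 76 genes of cation and nutrient transport, with NRAMP5 as the sole member, 0 were called at 4 h in limma, 6 were lower and 4 higher at an unadjusted p under 0.05, and 19 were lower and 18 higher in all 3 CRL1 lines at 8 h. Of all probe sets tested at 4 h, 24.7% were lower and 17.9% higher in all 3 CRL1 lines at 8 h. Among the 25 genes that matched aquaporin names, which also took in PIP5K, FLO6, HSFA2D and ARD1, 12 were lower in all 3 CRL1 lines at 8 h and 2 higher, with a median of -0.23. At 4 h 0 of them were called in limma, with 2 lower and 1 higher at an unadjusted p under 0.05. PIP2;2, a plasma membrane water channel, had 884.7, 768.1 and 813 at 4 h in dexamethasone-treated CRL1 lines, against 1479.1, 1216.6 and 1170.2 in mock-treated CRL1 lines, without overlap. Its 4 h change was -0.64 ± 0.15 (limma, adjusted p = 0.131, and 0.0209 with line as a block). At 8 h its control lines changed by -0.54 on average, with -0.88 in line 1, beyond the limit of the rule.

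The jasmonate list of 32 genes held no member and no call at 4 h in limma, with 5 lower and 2 higher at an unadjusted p under 0.05. AOS4, an allene oxide synthase gene, had 88.7, 107.1 and 134.6 at 4 h in dexamethasone-treated CRL1 lines, against 301.3, 212.1 and 320.2 in mock-treated CRL1 lines, a change of -1.32 ± 0.26 (adjusted p = 0.0869, and 0.0448 with line as a block). The lists of brassinosteroid, gibberellin, ethylene and cytokinin genes, with 16, 15, 12 and 6 measured genes, held no member and no call at 4 h in limma. At an unadjusted p under 0.05, 1, 2, 1 and 0 of their genes were lower and 1, 2, 0 and 0 higher. The lack of members in these lists is in part set by the rule. BHLH172 of the brassinosteroid list met the signal limits, with a mean 8 h change of -2.29, and was left out by name. CYP724B1 and CYP88A5, of the brassinosteroid and gibberellin lists, also had barred names. Their mean 8 h changes of 0.36 and -0.6 would have kept them out in any case. ACO1, an ethylene synthesis gene, and RR2, a cytokinin response regulator, were left out by name at -2.0 and -1.26. Neither was on the ethylene or cytokinin list. The abscisic acid and stress list of 95 genes, home to BZIP06, had 1 gene called higher at 4 h (PP2C40, 0.76 ± 0.13, adjusted p = 0.0401) and 0 called lower, with 4 lower and 6 higher at an unadjusted p under 0.05. With line as a block 4 were called higher, PP2C40, PP2C15, PP2C29 and PP2C45 (adjusted p = 0.039, 0.0442, 0.0483 and 0.0358). Of the 121 genes in the MYB, NAC, bHLH, zinc finger and MADS list, which holds BCL1, 2 were called higher at 4 h (C3H50 and C3H24) and 0 lower. In that list 1 was lower and 12 higher at an unadjusted p under 0.05. Of all 30453 probe sets tested, limma called 120 higher and 11 lower at 4 h in the CRL1 lines. Calls were therefore mostly rises among all probe sets too. The 48 protein kinase genes, NEK2 among them, had no call at 4 h in limma, with 3 lower and 4 higher at an unadjusted p under 0.05. With line as a block 3 were called higher, BIMK1, CPK7 and CPK13 (adjusted p = 0.0121, 0.0228 and 0.0331).

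Sums of marker signals were compared between dexamethasone and mock samples, first at 8 h. The summed signal of 12 root markers was 2230 to 2810 in dexamethasone-treated CRL1 lines, against 2890 to 3820 in mock-treated CRL1 lines. In the control lines it was 2580 to 3400 after dexamethasone, against 4180 to 4700 after mock. Gene by gene, 2 of the 12 root markers were lower and 3 higher in all 3 CRL1 lines at 8 h. Their median 8 h change was -0.15 in the CRL1 lines and -0.5 in the control lines. The 6 shoot meristem markers summed to 871 to 1180 after dexamethasone in the CRL1 lines, against 1290 to 1560 after mock. In the control lines their sum was 1310 to 2200 after dexamethasone, against 1910 to 1930 after mock. In all 3 CRL1 lines 4 of the 6 were lower, against 24.7% of all probe sets tested. Their median 8 h change was -0.35 in the CRL1 lines and -0.2 in the control lines. In the CRL1 lines at 8 h the sums of the 14 leaf markers overlapped, at 19200 to 22000 after dexamethasone, against 19500 to 23900 after mock. Gene by gene, 5 of the 14 were lower and 0 higher in all 3 CRL1 lines, against 24.7% and 17.9% of all probe sets tested. Their median was -0.21, against -0.03 in the control lines. The sums of the 8 vascular markers also overlapped, at 1390 to 1760, against 1400 to 2200. Of the 8, 3 were lower and 1 higher in all 3 CRL1 lines, with a median of -0.43, against -0.16 in the control lines. At 4 h the shoot meristem sum was 1380 to 1580 after dexamethasone in the CRL1 lines, against 1510 to 1620 after mock. The root sum was 3620 to 4400 after dexamethasone, against 2820 to 4990 after mock. Gene by gene, the root markers had a median 4 h change of 0.44 in the CRL1 lines and 0.02 in the control lines. Of the 12, 4 were higher and 0 lower at an unadjusted p under 0.05 in limma, and 0 were called. The vascular sum at 4 h was 1160 to 1600 after dexamethasone in the CRL1 lines, against 1550 to 2340 after mock, with a median change of -0.37 and 3 of the 8 genes lower at an unadjusted p under 0.05 (0 called in limma). No root or vascular marker was at 0 on all arrays of a group, which does not show that each was expressed. The part of these cell types in the members' changes was not tested.

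Values just inside and just outside each limit of the rule were close. Just inside the limit of -0.8 were OsAffx.14074.1.S1_at, whose weakest line changed by -0.804, and LOC4332586 at -0.806. Just outside were Os.7688.2.S1_x_at at -0.7996 and MHZ4 at -0.795. Os.5187.1.S1_at entered with a mean mock signal of 50.2 and LOC4333691 stayed out with 49.7. LOC4350464 passed the control limit at -0.492 and LOC4348488 failed it at -0.5065. In all, 526 probe sets were lower by at least 0.8 in all 3 CRL1 lines at 8 h. Of these, 69 bright enough for the set failed the control limit, and 151 that met the control limit were too dim.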

How the data were processed

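The submitters' processing notes name MAS5 and Affymetrix Expression Console for the deposited intensity values. Their versions are not given in the sources used here. The signals were used on the authors' scale, and fold changes were computed on the log2(signal + 1.7) scale, which understates changes of dim probe sets. The 123 control probe sets were left out. Genes came from the platform annotation, with names updated from a RefSeq table: 22436 probe sets had 1 gene, 95 several and 34727 none, and 2449 genes had a name. No coordinates are given, because the build of the array is not given in the sources used here.

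Members and gene lists were chosen with earlier results of these data known. Because the rule used the 8 h arrays, tests were run on the 10 arrays of 4 h alone. Probe sets had to exceed the array median on at least 3 of them to be tested. The fit had 4 group means and 6 residual degrees of freedom (limma 3.58.1, R 4.3.3, trended empirical Bayes). A difference in level between the untransformed and the empty vector line enters the spread shared by all 4 groups, unless line is a block. P-values were adjusted over all 30453 probe sets by Benjamini-Hochberg, with calls at 0.05. Each ± after a log2 change is the model's standard error unless given as SD. The number of arrays limits the precision.

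Dexamethasone and mock arrays of 1 line are paired by the labels. Deviations from group means at 4 h correlated at 0.00965, 0.147 and 0.124 within the CRL1 lines and at -0.143 to 0.0125 between them. The blocked value is printed where it changes a named gene's call or a count. Named members are those with a gene name, the 5 with the largest 8 h change, those called at 4 h, and those nearest the limits, with up to 4 genes of each list. A part of the rule that needed gene descriptions gave none. Members named for their probe sets, gene order or time course were chosen after their values were seen. The alternatives tried were other offsets (none, or the median signal), other filters (none, or the 75th percentile), quantile scaling, all 20 arrays, line as a block, array weights, other limits of the rule, and leaving out each line.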

Additional observations from a re-analysis of the deposited data

Results flagged for a closer look

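Os.15765.1.S1_at, which has no listed gene, was lower after dexamethasone in every CRL1 line at 4 h and at or slightly above its mock signal in both control lines. The mean change was -0.84 in the CRL1 lines (limma, adjusted p = 0.55) and 0.08 in the control lines, and -0.49 in the CRL1 lines without line 2. Its 4 h signals were 133, 135.6 and 112.6 in dexamethasone-treated CRL1 lines, against 185.4, 398.5 and 161.1 in mock-treated CRL1 lines. The control lines had 391.4 and 254.4 after dexamethasone, against 389.9 and 228.5 after mock, changes of 0.01 and 0.15. The difference of -0.92 ± 0.53 did not pass the test across all probe sets (limma, adjusted p = 1.0). With 3 arrays or fewer in a group, no array was tested for standing apart from its group.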

How the results depend on the processing

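The count of 3 members called lower at 4 h in the CRL1 lines was 1 without the filter, 0 in the fit of all 20 arrays, 6 with array weights and 11 with line as a replicate block, and ranged from 0 to 8 when 1 line was left out. It was 0 without any 1 of the CRL1 lines, 8 without control line 1 and 7 without control line 2. No member was called in the mock comparison, but 12 were without control line 2 (range 0 to 12). The mock comparison with a fixed line block could not be fitted, since each line has 1 genotype. Over all probe sets, the calls lower at 4 h in the CRL1 lines moved too. They were 11 in the main fit, 55 with array weights and 90 with line as a block. They were 6 without the filter and 9 in the fit of all 20 arrays, and they also rose without either control line. The rise in members called in these settings was therefore general and not particular to the members. The set of 160 members became 79 at a limit of -1 and 318 at a limit of -0.6, and 187 to 443 with 1 line left out, 443 without CRL1 line 1 and 283 without line 3. The count of 117 members lower in all 3 CRL1 lines was 119 after quantile scaling, and 123 to 140 over the lines that remained when 1 CRL1 line was left out. It was 95 of 128 without shared-probe endings and 89 of 119 at 1 probe set per gene. SAT5 at 4 h, 0.0, was -0.0 with the offset at the median signal and -0.09 to 0.12 with a line left out. LOC4346234 lost its call without the filter (adjusted p = 0.0552), at the 75th percentile (0.0519) and with all 20 arrays (0.375), LOC4347766 with all 20 arrays (0.101), and OsAffx.14074.1.S1_at without the filter (0.0551) and with all 20 arrays (0.0772). Depth of signal limits dim members, since the lowest mean mock signal was 50.2.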
